A study of Mus musculus with 8 samples.

Results

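Mitochondrial fusion and fission were followed through 7 genes, Mfn1, Mfn2, Opa1, Oma1, Dnm1l, Fis1 and Mff, chosen by symbol from the 23372 genes of the deposited count table. All 7 were found, and all 7 passed the filter on low counts that left 14178 tested genes. RNA of brown adipose tissue, a heat-producing fat, had been sequenced from mice 10 weeks old on the strain background C57BL/6 N. The 4 control libraries (replicates 511, 514, 517 and 518) came from mice that carry floxed Lsd1 (gene symbol Kdm1a), which encodes an enzyme that removes methyl groups from histones. The 4 knockout libraries (replicates 512, 513, 515 and 516) came from floxed mice that also carry Ucp1-Cre, a recombinase driven by a promoter of brown adipocytes, so that cells with a silent Ucp1 promoter keep Lsd1. The labels give no Cre for the controls, so the presence of Cre and the loss of Lsd1 cannot be told apart. They do not say whether the mice were littermates or housed together. P-values set the group difference against the spread between these libraries within a group, which may not stand for independent mice.

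Mitochondria form a network that is remodelled by joining and by division. Mitofusins, encoded by Mfn1 and Mfn2, are GTPases of the outer membrane that join the outer membranes of neighbouring mitochondria, and Opa1 is the GTPase that joins the inner membranes and keeps the cristae in shape. Oma1 is a stress-activated protease of the inner membrane that cuts Opa1. Division is carried out by the dynamin-related GTPase Drp1, encoded by Dnm1l, which is recruited from the cytosol by outer membrane proteins such as Mff, while Fis1 is an outer membrane adaptor linked to division and to the removal of mitochondria. In brown adipocytes the network divides when heat production is switched on by noradrenaline.

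Levels are given as CPM, counts relative to the library total scaled by TMM factors, with the SD over 4 libraries, and changes as log2 fold change of knockout over control with its approximate standard error (SE). Adjusted p-values are from edgeR's quasi-likelihood test with Benjamini-Hochberg adjustment over all 14178 genes, and a gene was called at an adjusted p under 0.05. Values of single libraries follow the order of replicates given above. The libraries held 23683936.5 to 28570627 counts over 1 row per symbol. The target Kdm1a was at 35.4 ± 1.52 CPM in controls and 13.1 ± 0.711 CPM in knockouts (SD, n = 4 each), a fall with no overlap between the groups (log2 fold change -1.43, edgeR adjusted p = 2.66e-05). Of all tested genes 34.4% were called, 18.9% lower and 15.4% higher in knockout tissue, and 35.5% had groups that did not overlap. The split depended on the scaling between libraries: 2189 genes were higher and 2682 lower with TMM factors, 2915 and 1625 with upper quartile factors, and 4077 and 930 with library sizes alone. Upper quartile factors moved the median log2 fold change of all genes by 0.103, and library sizes alone by 0.199.

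Of the 7 genes, 4 fell with TMM factors, against 18.9% of all tested genes, and 0 rose. Those counts, 4 and 0, were the same at an unadjusted p under 0.05 and by DESeq2 and limma-voom. Those called were Opa1, Dnm1l, Mfn2 and Mff, and those not called were Mfn1, Oma1 and Fis1. The median log2 fold change of the 7 was -0.19, beside -0.012 over all tested genes. In 5 of the 7 the groups did not overlap with TMM factors, all lower in knockout tissue. Of all genes 19.7% had such a pattern. A larger factor lowers the CPM, and the smallest knockout factor, 1.05 (replicate 512), exceeded the largest control factor, 0.961 (replicate 518). With library sizes alone the log2 fold changes were -0.33 for Opa1, -0.088 for Dnm1l, -0.014 for Mfn2, 0.0080 for Mff and 0.13 for Oma1. Separation of the groups in CPM thus depends on the scaling, and it was not counted with library sizes alone. With any scaling tried, by any tool tried and without any single library, Opa1 was called, whereas the other 3 calls were near the threshold and ended under several of these choices. In whole tissue, fewer cells of a type and less RNA per cell cannot be told apart.

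**Figure D1:**
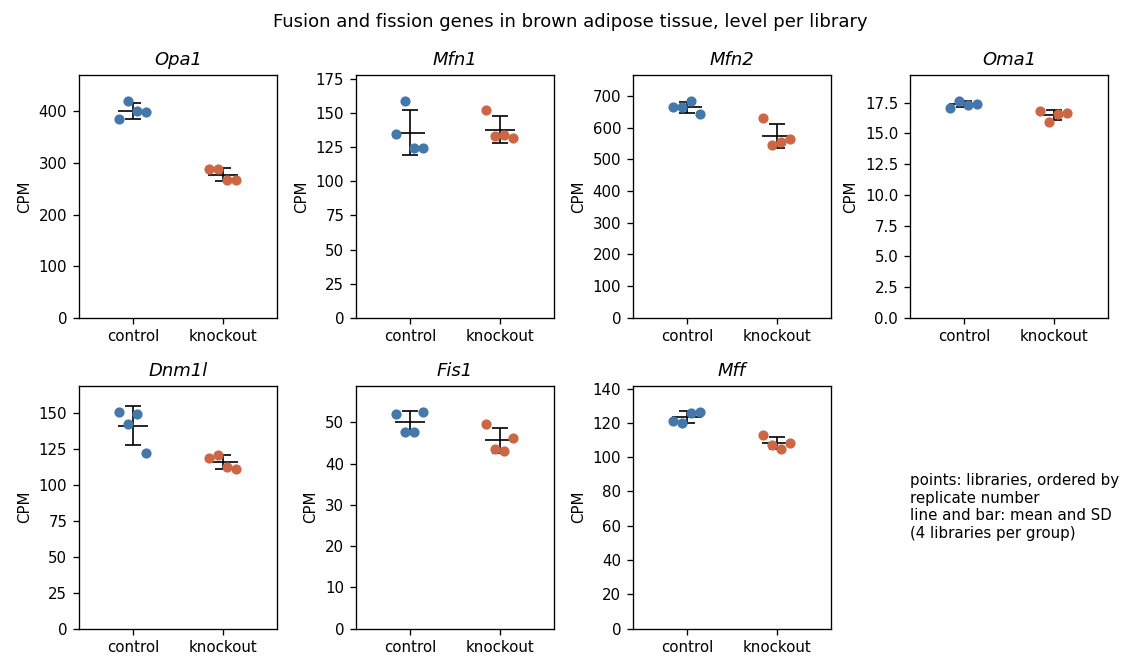
Level in CPM (vertical axes, each starting at 0) of the 7 fusion and fission genes in 4 control and 4 knockout libraries. Points are libraries, and the line and bar are the mean and SD. The Opa1 controls sit between 384 and 420.3 CPM and its knockouts between 267 and 289 CPM, while the Mfn1 groups overlap.

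Opa1, the inner membrane fusion GTPase (chromosome 16, 29579334 to 29654602, plus strand, mm10), showed the largest change of the 7. Its level was 384, 420.3, 400.3 and 398 CPM in controls and 289, 288, 267 and 267 CPM in knockouts. Each knockout library was thus below each control library, and the libraries within a group lay close together. The mean went from 401 ± 14.9 to 277 ± 12.2 CPM (SD, n = 4 each), or -0.53 in log2 fold change with SE 0.0639 (edgeR adjusted p = 0.000587). Opa1 transcript thus fell by 30.8%, with a 95% interval of the log2 fold change from -0.67 to -0.39. By the size of its p, Opa1 ranked 338 among the 14178 genes. Each library gave it at least 6763.5 counts. The table holds 2 Opa1 transcripts with the same start and end, of 5889 and 5941 bases, and the shorter was used. Both gave a log2 ratio of the group means of -0.53. In the authors' deposited table the log2 fold change of the shorter was -0.55 with a false discovery rate of 0.000493.

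The DNA before and at the start of Opa1 is shown because this gene carried the largest change, and that of Mfn1 because its estimate lay nearest 0. Each window covers 250 bases before and 50 bases after an annotated start, from RefSeq on GRCm38.p6, the patch release of the mm10 assembly, printed 5′ to 3′ along the gene's strand. Capitals mark matches to 5 motifs that were searched on both strands.
Opa1 (chr16:29579084-29579383, plus strand): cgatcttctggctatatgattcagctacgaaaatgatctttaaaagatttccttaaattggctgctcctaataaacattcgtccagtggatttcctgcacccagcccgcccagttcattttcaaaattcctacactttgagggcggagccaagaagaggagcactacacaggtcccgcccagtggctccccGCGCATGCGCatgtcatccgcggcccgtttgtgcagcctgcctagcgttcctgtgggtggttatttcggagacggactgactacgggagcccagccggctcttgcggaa
Mfn1 (chr3:32529232-32529531, plus strand): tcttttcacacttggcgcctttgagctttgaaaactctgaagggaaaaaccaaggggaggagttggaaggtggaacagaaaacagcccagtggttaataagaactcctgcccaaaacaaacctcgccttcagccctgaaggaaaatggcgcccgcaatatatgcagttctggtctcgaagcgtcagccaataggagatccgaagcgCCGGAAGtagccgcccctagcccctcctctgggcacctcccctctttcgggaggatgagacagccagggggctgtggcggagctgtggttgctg
In the Opa1 window the capitals are the letters GCGCATGCGC, a match on both strands to GCGCA, any base and GCGC, the element bound by the factor NRF1, which acts at many genes of mitochondrial proteins. This element was present in 4.6% of all 32851 windows, and among the 12 windows of the 7 genes it was present in 2, those of Opa1 and Oma1. Of these, Opa1 was called and Oma1 was not. The capitals in the Mfn1 window match CCGGAAG, the core bound by ETS family factors, which 8.86% of all windows held and which also occurred in windows of Dnm1l and Fis1. None of the 12 windows held TCAAGGTCA, the element of the ERR receptors (0.423% of all windows), AAGATGGC, that of YY1 (2.75%), or CACGTG, the E-box (7.15%). A match is a description of letters and was not tested for binding.

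The mitofusins differed in level and in estimate. Mfn2 (chromosome 4, 147873595 to 147904819, minus strand) held 666, 666, 685 and 642 CPM in controls and 631, 546, 554 and 565 CPM in knockouts. The groups did not overlap with TMM factors, although knockout 512 came close to control 518. The mean went from 665 ± 17.4 to 574 ± 38.8 CPM (SD, n = 4 each), with a log2 fold change of -0.21, SE 0.0704 and edgeR adjusted p = 0.0442. Its log2 fold change was between -0.26 and -0.19 without any 1 of the 8 libraries, while the adjusted p crossed the threshold. The call remained without knockout 512 (edgeR adjusted p = 0.0231) and ended without control 511, 514, 517 or 518 (0.0665, 0.0708, 0.0915 and 0.0744) or knockout 513, 515 or 516 (0.121, 0.115 and 0.10). Changing the scaling to relative log expression (0.0613), to upper quartiles (0.267) or to library sizes alone (0.891) ended it too.

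Mfn1 (chromosome 3, 32529482 to 32579225, plus strand) held 135, 159, 125 and 124 CPM in controls and 153, 133, 134 and 132 CPM in knockouts. The groups overlapped, and control 514 and knockout 512 were the highest of their groups. The means were 136 ± 16.3 and 138 ± 9.89 CPM (SD, n = 4 each), and the log2 fold change was 0.023 with a 95% interval from -0.19 to 0.24 (edgeR adjusted p = 0.87). A change of the size seen for Opa1 lies outside this interval. The sign of the Mfn1 estimate turned without control 517 or knockout 512 and by limma-voom, with log2 fold changes of -0.018, -0.032 and -0.018. The estimate was larger with upper quartile factors (0.12) and with library sizes alone (0.22). With library sizes alone Mfn1 had an edgeR unadjusted p of 0.0404 and an edgeR adjusted p of 0.0908, so it was not called.

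Oma1, the protease that cuts Opa1 (chromosome 4, 103313846 to 103366428, plus strand), was the least abundant of the 7. It was at 17.1, 17.6, 17.3 and 17.4 CPM in controls and at 16.8, 15.9, 16.6 and 16.7 CPM in knockouts. With TMM factors the groups did not overlap, but the gap between the lowest control and the highest knockout was small and depends on that scaling. The log2 fold change was -0.072 with a 95% interval from -0.23 to 0.087, and Oma1 was not called (edgeR adjusted p = 0.458). Its counts per library were 392 to 462, the lowest of the 7, and its estimate was above 0 with upper quartile factors (0.031) and with library sizes alone (0.13).

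Among the division genes, Dnm1l, which encodes Drp1 (chromosome 16, 16312233 to 16359030, minus strand), held 151, 142, 149 and 122 CPM in controls and 118, 121, 112 and 111 CPM in knockouts. The groups did not overlap with TMM factors, but control 518 lay just above knockout 513. The mean went from 141 ± 13.3 to 115 ± 4.85 CPM (SD, n = 4 each), with a log2 fold change of -0.29, SE 0.0796 and edgeR adjusted p = 0.0218. The Drp1 transcript thus fell by 18.1%, next after Opa1 among the 7. Without any 1 library its log2 fold change was between -0.33 and -0.26. The call ended without control 517 (edgeR adjusted p = 0.0516), knockout 515 (0.0612) or knockout 516 (0.0625), with upper quartile factors (0.115) and with library sizes alone (0.391). Of the exon bases of Dnm1l, 5.36% lie opposite another gene model, and the counts were made without strand. The 2 Dnm1l transcripts of the table gave the same log2 ratio of group means, -0.29.

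Mff, the outer membrane receptor for Drp1 (chromosome 1, 82724918 to 82752389, plus strand), held 121, 119.9, 126 and 127 CPM in controls and 113, 107, 105 and 108 CPM in knockouts. The groups did not overlap with TMM factors, and both were tight. The mean went from 123 ± 3.33 to 108 ± 3.39 CPM (SD, n = 4 each), with a log2 fold change of -0.19, SE 0.0556 and edgeR adjusted p = 0.028. Without any 1 library its log2 fold change was between -0.21 and -0.15. Calls of Mff were lost without control 517 or 518 (edgeR adjusted p = 0.0573 and 0.0826) or knockout 513, 515 or 516 (0.077, 0.0822 and 0.0652), and with upper quartile factors (0.257). With library sizes alone its estimate was 0.0080 (0.933). Opposite another gene model lie 9.08% of its exon bases.

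Fis1, the adaptor of the outer membrane (chromosome 5, 136962077 to 136966234, plus strand), held 52.0, 47.7, 47.6 and 52.6 CPM in controls and 49.6, 43.6, 43.0 and 46.2 CPM in knockouts. Knockout 512 lay above 2 of the 4 controls, so the groups overlapped. The log2 fold change was -0.13 with a 95% interval from -0.29 to 0.028, and Fis1 was not called (edgeR adjusted p = 0.177). With library sizes alone it was 0.066. A Fis1 transcript of 939 bases with an earlier start gave a log2 ratio of group means of -0.14, beside -0.13 for the 775 bases of the row used.

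**Figure D2:**
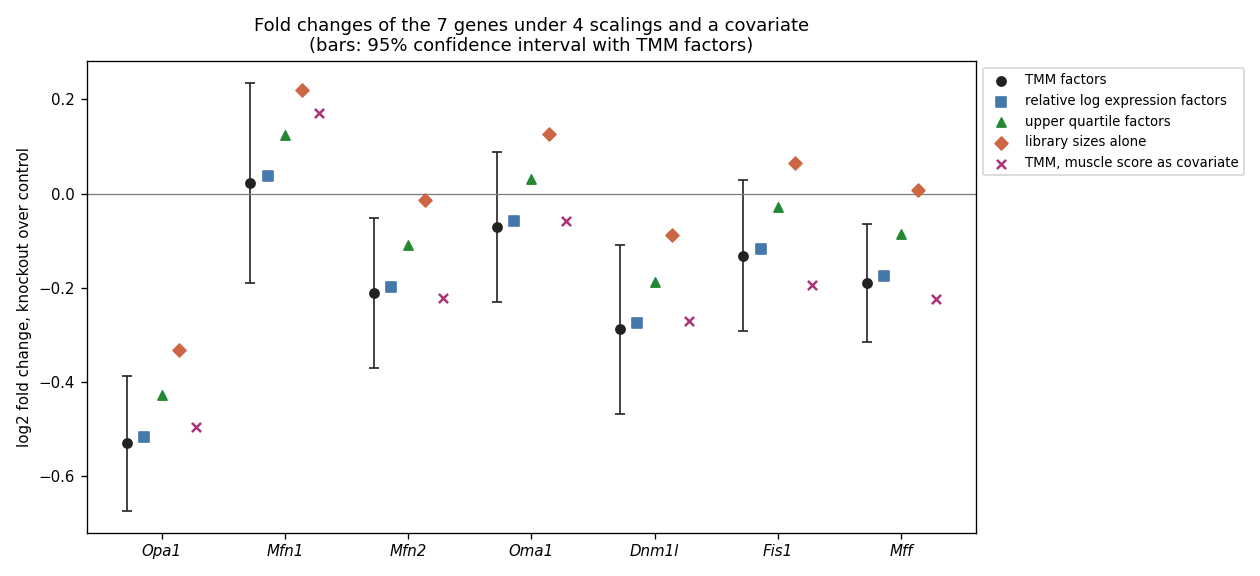
Log2 fold change of knockout over control (vertical axis) for the 7 genes under 4 scalings between libraries and with a muscle score as a covariate. Bars are the 95% confidence interval with TMM factors. Opa1, Dnm1l and Mfn2 are below 0 at every point, with Opa1 from -0.53 to -0.33. Mfn1 is above 0 at every point. Mff, Fis1 and Oma1 are above 0 with library sizes alone, and Oma1 also with upper quartile factors.

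A scaling moves every gene by nearly the same amount, so the 7 genes keep their distances from one another. Relative to the median of all tested genes, Opa1 was at -0.52, Dnm1l at -0.28, Mfn2 at -0.20, Mff at -0.18, Fis1 at -0.12, Oma1 at -0.059 and Mfn1 at 0.035 on the log2 scale with TMM factors. With library sizes alone these distances were -0.52, -0.27, -0.20, -0.18, -0.12, -0.060 and 0.034. In the authors' deposited table the false discovery rates were 0.102 for Dnm1l, 0.273 for Mfn2 and 0.313 for Mff, with log2 fold changes of -0.30, -0.23 and -0.21. In the authors' deposited table Mfn1, Oma1 and Fis1 had false discovery rates of 1, 0.938 and 0.566. Of the 7 genes Opa1 alone was therefore under 0.05 in the authors' deposited table.

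Per length of transcript, Mfn2 was the most abundant of the 7 in every library. In controls its level was 153 ± 4.01 CPM per kilobase (SD, n = 4), followed by Opa1 (68.1 ± 2.53), Mff (66.8 ± 1.81), Fis1 (64.5 ± 3.44), Dnm1l (35.4 ± 3.34), Mfn1 (30.2 ± 3.63) and Oma1 (9.39 ± 0.129). The ranges of Opa1 and Mff, of Mff and Fis1, and of Dnm1l and Mfn1 overlapped. Within libraries Opa1 was above Mff in 1 of 4 controls and Mff above Fis1 in 3 of 4, while Dnm1l was above Mfn1 in 4 of 4. In knockouts Mfn2 stayed first at 132 ± 8.95 CPM per kilobase, and Fis1 (58.9 ± 3.89) and Mff (58.6 ± 1.83) came next with overlapping ranges. Opa1 came after them at 47.1 ± 2.08 CPM per kilobase, below Mff in 4 of 4 knockout libraries. Mfn1 (30.7 ± 2.20) and Dnm1l (29.0 ± 1.22) overlapped again, and Oma1 was last at 8.94 ± 0.212.

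Ratios of levels per length within a library do not depend on the scaling between libraries, and they are given as log2 values with no test. Oma1 over Opa1, protease over substrate, was -2.82, -2.90, -2.86 and -2.84 in controls and -2.43, -2.50, -2.34 and -2.33 in knockouts. The groups did not overlap, and the transcript of Oma1 per transcript of Opa1 went from 0.138 to 0.19 on the linear scale. Opa1 over Dnm1l was 0.78, 0.999, 0.86 and 1.14 in controls and 0.72, 0.69, 0.69 and 0.70 in knockouts. These groups did not overlap either, but control 511 lay close to knockout 512. After the Opa1 values had been seen, Opa1 was also set against the other 4 genes. The mean log2 ratio changed in knockouts by -0.56 over Mfn1, -0.40 over Fis1, -0.34 over Mff and -0.32 over Mfn2. The groups overlapped in none of them, but all ratios with Opa1 share its values and are not separate observations. Mfn2 over Mfn1 went from a mean of 2.35 ± 0.168 to 2.11 ± 0.0301 (SD, n = 4 each), but control 514, at 2.12, lay within the knockout range. Mff over Fis1, the ratio of the outer membrane adaptors, was 0.052 ± 0.0785 in controls and -0.0053 ± 0.0514 in knockouts, and the groups overlapped.

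**Figure D3:**
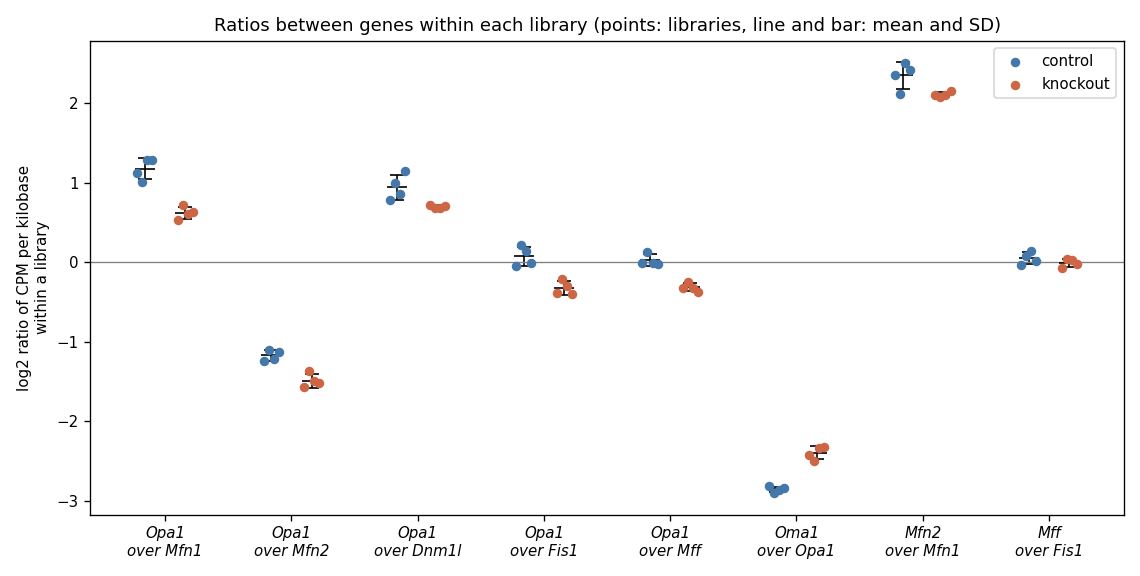
Log2 ratio of CPM per kilobase between pairs of genes within each library (vertical axis), with points for libraries and the line and bar for mean and SD of 4. Every ratio with Opa1 separates the groups, whereas Mfn2 over Mfn1 and Mff over Fis1 overlap. The ratios with Opa1 share its values and are not separate observations.

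Other genes of mitochondrial dynamics were taken from 5 lists of textbook genes, chosen with earlier results of these data known. Of their 40 entries 39 were tested, and 28 fell and 3 rose while 8 were not called, beside 18.9% lower and 15.4% higher among all tested genes. Their median log2 fold change was -0.35. With library sizes alone 11 of the 39 were lower (6.56% of all genes), with upper quartile factors 19 (11.5%). Mtfr2 was not tested, with at most 15 counts in a library.

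In a list of Opa1 processing, the prohibitin scaffold and related proteases, 8 of 8 genes fell, with a median log2 fold change of -0.43. The 8 include Dele1, which is known as a substrate of Oma1 in stress signalling. Phb2, a prohibitin of the ring scaffold that stabilises long Opa1, held 357, 401, 378 and 394 CPM in controls and 269, 248, 258 and 247 CPM in knockouts (log2 fold change -0.58, edgeR adjusted p = 0.000495). The groups were well apart, as they were for its partner Phb, which went from 75.0 ± 2.65 to 48.4 ± 4.09 CPM (-0.63, edgeR adjusted p = 0.000524). Stoml2, a stomatin-like protein that binds prohibitins, fell by 0.47 (edgeR adjusted p = 0.00117), and an antisense gene model covers 25.9% of its exon bases. The list also holds Yme1l1, the other protease that cuts Opa1, whose log2 fold change was -0.28 (edgeR adjusted p = 0.011). Yme1l1 was named after its value had been seen, as the counterpart of Oma1.

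In the list of MICOS and cristae organisation, the complex that shapes cristae junctions, 6 of 8 genes fell (median -0.42). Immt, which encodes its core subunit mitofilin, held 992, 1010.3, 1019.9 and 1013 CPM in controls and 736, 714, 745 and 779 CPM in knockouts (log2 fold change -0.44, edgeR adjusted p = 0.00117). The Immt groups were far apart relative to their spread. Samm50, which sorts proteins into the outer membrane, fell by 0.62 and Minos1, a small MICOS subunit, fell by 0.46 (edgeR adjusted p = 0.00152 and 0.00186). The remaining pair was not called: Chchd6 was at -0.025 and Apoo at -0.21, both picked out once the values were known.

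Among receptors of Drp1 and regulators of division, 5 of 10 tested genes fell and 2 rose (median -0.27). Mief1, a receptor that recruits Drp1, held 64.0, 65.3, 68.0 and 65.1 CPM in controls and 50.9, 55.7, 53.7 and 51.7 CPM in knockouts (log2 fold change -0.31, edgeR adjusted p = 0.00431). Pgam5, a phosphatase of mitochondria, fell by 0.40 (edgeR adjusted p = 0.00584), and an antisense gene model covers 65.7% of its exon bases. Inf2, a formin that builds actin at division sites, rose from 70.5 ± 2.51 to 85.0 ± 5.59 CPM (log2 fold change 0.27, edgeR adjusted p = 0.0143). The other riser, Gdap1, named after its value was seen, had 0.414 CPM in controls and 1.20 CPM in knockouts (log2 fold change 1.53, edgeR adjusted p = 0.018). The Mief1 and Pgam5 calls ended with library sizes alone (edgeR adjusted p = 0.238 and 0.0973).

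Of the fusion helpers and ubiquitin control genes, 6 of 9 fell and 1 rose (median -0.35). Miga2, listed in the file as Fam73b and encoding an outer membrane protein that promotes fusion, fell from 362 ± 21.1 to 228 ± 6.10 CPM (log2 fold change -0.67, edgeR adjusted p = 0.000285). March5, a ubiquitin ligase of the outer membrane that acts on fusion and division proteins, held 224, 225, 224 and 236 CPM in controls and 164, 152, 149.6 and 149.7 CPM in knockouts (-0.56, edgeR adjusted p = 0.000388). Both genes had groups well apart. Mul1, another ligase there, fell by 0.39 (edgeR adjusted p = 0.00306), a call that ended with library sizes alone (0.0845). The riser, named after its value was seen, was Miga1 (0.50, edgeR adjusted p = 0.0199), listed as Fam73a, at 4.98 CPM in controls.

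Of the 4 adaptors that carry mitochondria along the cytoskeleton, 3 fell (median -0.31). Rhot1, an outer membrane GTPase that links mitochondria to motors, fell by 0.36 (edgeR adjusted p = 0.00157), its relative Rhot2 fell by 0.32 (0.00687) and Trak1, a motor adaptor, fell by 0.31 (0.0148). Other gene models on the same strand share 43.5% of the exon bases of Rhot2. The calls of all 3 ended with library sizes alone (0.0576, 0.229 and 0.264), and that of Trak1 also with upper quartile factors (0.0679). Trak2, named after its value was seen, had a log2 fold change of 0.0082 and no call.

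**Figure D4:**
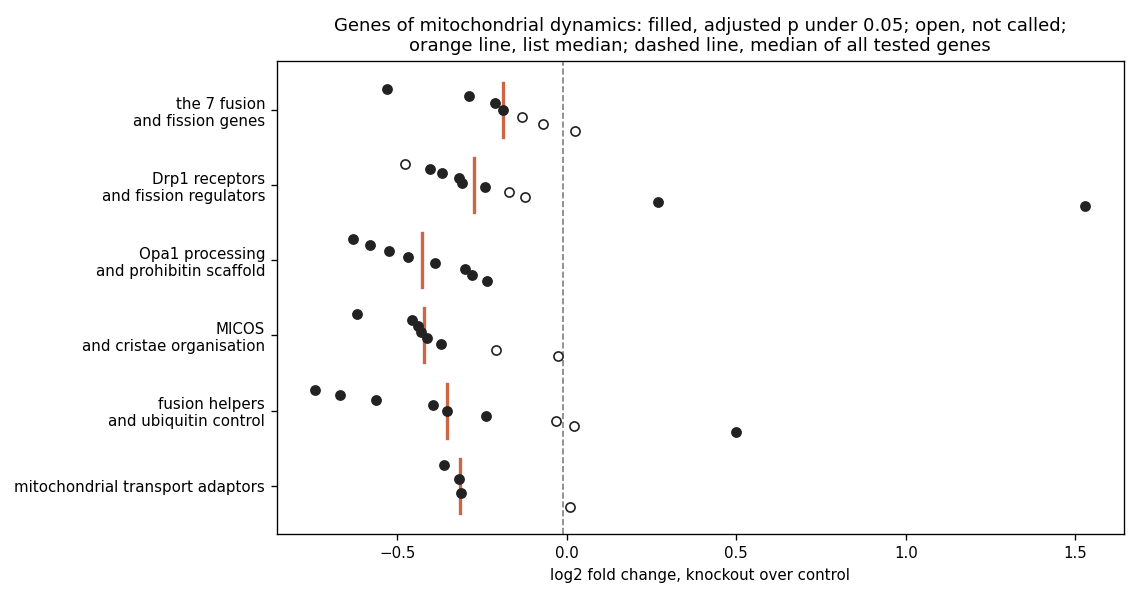
Log2 fold change of knockout over control (horizontal axis) for the 7 fusion and fission genes and 5 lists of other genes of mitochondrial dynamics. Filled points passed an edgeR adjusted p of 0.05, open points did not, orange lines are list medians and the dashed line is the median of all tested genes. The list medians run from -0.43 to -0.19, and 3 genes outside the 7 lie to the right among the filled points.

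Markers of some cell types also differed between the groups. The brown fat genes among the markers, such as Ucp1, Cidea and Cox8b, were present in all libraries. The summed level of the 7 markers was 7664 to 10652 CPM in controls and 4681 to 5224 CPM in knockouts, with 4 of 7 called lower. Ucp1 weighed heavily in this sum, with a mean of 4481 CPM in controls and 1377 CPM in knockouts. Those not called were Cidea, Ppargc1a and Dio2, with log2 fold changes of -0.26, -0.033 and 0.17. Markers of skeletal muscle, a tissue rich in mitochondria, summed over 12 genes to 269.7 CPM in control 514, 3431 to 5419 CPM in the other controls and 6516 to 13574 CPM in knockouts. All 12 had estimates above 0, and knockout 512 was the highest. Of the 12, edgeR called 1, DESeq2 2 and limma-voom with sample weights 12. The muscle score, the mean log2 CPM of the 12, was 4.06 to 8.33 in controls and 8.59 to 9.64 in knockouts. Score and genotype thus went together, and a fit with both cannot fully tell them apart. Adding the muscle score to the fit as a covariate, the log2 fold change of Opa1 was -0.49 (edgeR adjusted p = 0.00522). The values of Mfn2, Dnm1l and Mff were then -0.22, -0.27 and -0.22 without a call (0.127, 0.106 and 0.0655), while 12.9% of all genes and 22 of the 39 other dynamics genes were lower. In that fit 1 of the 39 was higher in place of 3: Inf2 kept its call (edgeR adjusted p = 0.0415), while Miga1, at 0.37 (0.156), and Gdap1, at 0.60 (0.258), lost theirs. Without control 514 and knockout 512 together, a choice made after seeing the data, Opa1 was at -0.53 (edgeR adjusted p = 0.00408), Mfn2 and Mff were called and Dnm1l was not (0.066). Markers of macrophages summed over 7 genes to 70.2 to 124 CPM in controls and 128 to 202 CPM in knockouts, with 4 of 7 higher. Those of endothelium (835 to 1019 and 860 to 985 CPM) and fibroblasts (848 to 1985 and 1637 to 2567 CPM) overlapped between groups with 0 of 6 called in each by edgeR, DESeq2 or limma-voom. At an unadjusted p under 0.05, edgeR and limma-voom each found 1 endothelial marker higher, 1 lower and 0 fibroblast markers. DESeq2 found 2 endothelial markers higher and 1 lower, and 2 fibroblast markers higher. The median log2 fold change was 0.41 for fibroblast markers, with 0 of 6 below 0, and 0.088 for endothelial markers, with 3 of 6 below 0. General adipocyte markers summed to 14471 to 19758 CPM in controls and 10181 to 11805 CPM in knockouts, with 4 of 6 lower. Nerve and Schwann cell markers summed to 115 to 138 and 122 to 177 CPM, with 0 of 5 called by edgeR (2 at an unadjusted p under 0.05), 2 by DESeq2 and 0 by limma-voom. The part of these cell types in the results was not tested beyond these values.

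The genes whose pattern over the 8 libraries was most like that of each gene were sought among 10351 genes of at least 5 CPM, by the root mean square difference of log2 CPM centred on each gene's mean. For Opa1 they were Slc25a39, a glutathione carrier of the inner membrane (difference 0.0422), Mrpl36, a mitochondrial ribosomal protein (0.0435), and Wars2, the mitochondrial tryptophanyl-tRNA synthetase (0.0488). The 3 fell by 0.54, 0.54 and 0.50 on the log2 scale. The pattern includes the difference between groups, so a fold change near that of Opa1 follows from how they were chosen. The closest to Mfn1 were Gpd1l (0.033), Pstk (0.0508) and Taz (0.0563), and those to Mfn2 were Stub1 (0.0254; an antisense gene covers 35.4% of its exon bases), Trpc4ap (0.0305) and Ngly1 (0.0325). Oma1 was most like Usp3 (0.0262), Dnm1l most like Hectd3 (0.0367), Fis1 most like Ing3 (0.0408) and Mff most like Vps35 (0.0239), a subunit of the retromer. Among the 7 themselves the closest pair was Mfn2 and Mff (0.0514) and the most distant was Mfn1 and Opa1 (0.296).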

How the data were processed

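Trizol-extracted total RNA of 4 control and 4 knockout brown fat samples was sequenced by an Illumina protocol, per the labels. TopHat2 (version 2), HOMER, edgeR and the build mm10 are named in the submitters' processing notes. The deposited estimated counts are unadjusted output of HOMER's analyzeRepeats.pl over exons of RefSeq transcripts on both strands, per the file headers. They are multiples of 0.5 (36.9% not whole) and were rounded before testing. A table of the authors' comparison was also read. It holds, per the file headers, a signal of scaled counts (not used here), a fold (ratio), p-values and false discovery rates, and log2 values.

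The 829 rows without a symbol (0.0608% to 0.0824% of counts) were left out, and per symbol the row with the highest total was kept, leaving 23372 genes. Genes passing filterByExpr (minimum count 10) were tested with edgeR 4.0.16 (R 4.3.3), knockout against control without covariates, two-sided. SE is the size of the log2 fold change divided by the square root of F, and intervals use it with the fit's degrees of freedom. Alternatives were 3 other scalings, no filter, DESeq2 1.42.0, limma-voom (limma 3.58.1) with sample weights, summed rows, a muscle score (mean log2 CPM of 12 markers, prior count 2) as covariate and leaving out each library. A further alternative, chosen after seeing the data, left out control 514 and knockout 512 together. Overlaps of exons used GENCODE M21, and 5 of 97 list entries were matched by a RefSeq synonym. The 7 genes and the lists were chosen with earlier results of these data known. From each of the 5 lists the 3 genes with the smallest p were named, and others only where stated. No protein sequences were used here.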

Additional observations from a re-analysis of the deposited data

Results flagged for a closer look

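In 68 groups of 4 libraries examined, 5 had 1 library far from the other 3, where chance gives about 1 in 20 groups. The highest knockout library for Mfn1 held 153 CPM (replicate 512), against 132 to 134 CPM in the others. For Phb the highest knockout library held 54.4 CPM (replicate 516), against 45.9 to 47.2 CPM. The lowest knockout library for Pgam5 held 34.5 CPM (replicate 516), against 36.4 to 36.7 CPM. For March5 the highest control held 236 CPM (replicate 518), against 224 to 225 CPM, and the highest knockout held 164 CPM (replicate 512), against 149.6 to 152 CPM.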

How the results depend on the processing

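Of the 17 alternatives, 17 kept the call and the direction of Opa1 (log2 fold change -0.55 to -0.33). The 17 include the fit without control 514 and knockout 512 together, which was chosen after seeing the data. Of the 7 fusion and fission genes, 4 were called with TMM factors, and 1 with upper quartile factors, library sizes alone or the muscle score as a covariate. Leaving out single libraries gave 1 to 4 called of the 7, 3427 to 4770 of all genes and 24 to 29 of the other dynamics genes, where all libraries gave 4871 and 31. The muscle score as a covariate left 3245 called genes, and library sizes alone left 14 of the other dynamics genes. Leaving out single libraries moved the knockout minus control difference in log2 ratio to between -0.32 and -0.19 for Mfn2 over Mfn1, 0.44 and 0.49 for Oma1 over Opa1, -0.085 and -0.025 for Mff over Fis1, and -0.30 and -0.18 for Opa1 over Dnm1l. Signs turned for Mfn1 (-0.018 by limma-voom, and from -0.032 to 0.11 without single libraries, below 0 without control 517 or knockout 512), Oma1 (0.031 with upper quartile factors, 0.13 with library sizes alone), Fis1 (0.066) and Mff (0.0080), the last 2 with library sizes alone. The cause was not tested. No paired analysis was possible because the labels give no pairing of mice between the groups. Counts were fewest for Oma1, with at least 392 per library, where counting error limits the precision most.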
